A study of Mus musculus with 14 samples.

Results

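The genes described here are the 54 mouse protein-coding genes to which 60 or more open-chromatin intervals were assigned in at least 1 of the study's 2 count tables, of 16695 protein-coding genes with any interval. An interval belonged to the gene that held its midpoint (the shortest where several did), or otherwise to the nearest gene within 50000 bp. The members were selected on the number of intervals, a measured value, so their interval numbers are given as a description with no test. They held 2787 of the 88203 chow intervals (3.16%) and 4411 of the 105801 high-fat diet intervals (4.17%). The question asked of them is how their accessibility differed between livers with and without matrin-3 on each diet.

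The libraries are ATAC-seq, in which a transposase cuts and tags open DNA, from nuclei of 50 mg pieces of frozen liver of 14 female mice. All animals carried the floxed Matr3 allele, and the knockouts (LKO) also carried Albumin-Cre, which removes the floxed segment in hepatocytes, so that other liver cells largely keep the gene. Either diet was begun at an age of 7 weeks and kept up for 16 weeks. On chow there were 3 knockouts and 3 floxed littermates. On the high-fat diet (60 kcal% from fat) there were 4 knockouts and 4 floxed littermates, and a fast of 12 h before tissue was taken is described for these. Whether the chow group was fasted too has no account in the labels. Matrin-3 is an RNA- and DNA-binding protein of the nuclear matrix.

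In bulk liver an interval's count depends both on how many nuclei are open there and on how often each is cut, and these cannot be told apart. Long stretches of a gene body can be open when it is transcribed strongly, because nucleosomes are displaced by polymerase, and clusters of enhancers within or around cell-identity genes give many open sites as well. Several of the 54 genes are known for high activity in hepatocytes: Cps1 and Ass1 for nitrogen metabolism, Rxra, Ppara and Rora as nuclear receptors, and Egfr as the growth factor receptor of the regenerating liver.

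Start-site sequences are shown for 4 members whose gene bodies had some of the highest or lowest median changes, because both tables hold an interval at each of these starts. Each is the 250 bases before the annotated start of transcription, 5′ to 3′ on the strand of the gene, from RefSeq on GRCm38.p6, the assembly that mm10 names. For Gfra1 and Cyp2b9 this start lies inside the gene bounds used below, from which distances along a gene are measured. Capitals mark matches, on either strand, to the TATA box (TATAAA), the CAAT box motif (CCAAT), the GC box (GGGCGG), a forkhead motif (TGTTTAC), a C/EBP motif (TTGCNNAA) or the core motif of nuclear receptors (AGGTCA). Promoter entries were found for 42 of the 54 genes.
Egfr, chr11:16751953-16752202, plus strand: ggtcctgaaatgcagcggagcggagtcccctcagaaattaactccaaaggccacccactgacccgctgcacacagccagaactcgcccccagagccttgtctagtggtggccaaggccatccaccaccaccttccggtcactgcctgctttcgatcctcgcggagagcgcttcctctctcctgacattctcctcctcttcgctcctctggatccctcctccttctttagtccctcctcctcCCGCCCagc
Ass1, chr2:31470020-31470269, plus strand: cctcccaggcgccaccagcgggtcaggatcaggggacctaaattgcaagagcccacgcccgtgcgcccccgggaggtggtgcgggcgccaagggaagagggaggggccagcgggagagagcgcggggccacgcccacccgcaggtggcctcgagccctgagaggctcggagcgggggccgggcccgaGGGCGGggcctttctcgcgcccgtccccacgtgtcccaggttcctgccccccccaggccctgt
Gfra1, chr19:58455399-58455648, minus strand: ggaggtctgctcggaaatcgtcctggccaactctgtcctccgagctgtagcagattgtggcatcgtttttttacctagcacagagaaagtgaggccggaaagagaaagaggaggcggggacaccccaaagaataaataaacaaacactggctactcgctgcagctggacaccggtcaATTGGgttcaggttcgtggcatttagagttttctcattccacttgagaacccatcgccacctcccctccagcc
Cyp2b9, chr7:26173159-26173408, plus strand: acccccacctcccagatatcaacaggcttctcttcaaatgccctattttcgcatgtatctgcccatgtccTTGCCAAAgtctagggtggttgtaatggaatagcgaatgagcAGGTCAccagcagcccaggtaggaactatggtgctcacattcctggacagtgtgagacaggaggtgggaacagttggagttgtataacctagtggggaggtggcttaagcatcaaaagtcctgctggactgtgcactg

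The Egfr stretch held 1 GC box, read on the opposite strand and ending 4 bases before the start, and no other match. Ass1 held 1 GC box, beginning 63 bases before the start, Gfra1 held 1 CAAT box motif on the opposite strand, and Cyp2b9 held 1 C/EBP and 1 nuclear receptor core motif. Over all members with an entry (67 entries), 56.7% had a GC box, against 32.7% of all 32851 promoter entries. TATA boxes were in 4.48% of the members' entries and 12.4% of all, and the CAAT box motif was in 35.8% and 33.8%. The nuclear receptor core motif was in 17.9% and 14%, the C/EBP motif in 7.46% and 9.56%, and the forkhead motif in 1.49% and 3.17%. These are counts of letters and not of bound sites. At each of the 4 starts 1 interval of each table overlapped the printed stretch.

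All 54 genes reached 60 intervals in the high-fat table and 14 of them in the chow table as well, where 40 did not. The 10 with most intervals were Adk with 36 on chow and 215 on high fat, Mtss1 (112 and 185), Egfr (144 and 136), Rxra (117 and 143), Cps1 (125 and 125), Ppara (39 and 108), Tns1 (57 and 101), Gse1 (76 and 100), Zmiz1 (79 and 98) and Shb (55 and 95). Interval number was higher in the high-fat table for 50 genes, with a median ratio of 1.43, while the whole high-fat table held 1.2 times as many intervals as the chow table. The tables were called separately and have different depths, so this ratio is no comparison of diets.

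The members were long: their median length was 162 kb, against 22.7 kb over all genes with an interval, and they ran from 24.3 kb (Frmd8) to 1302 kb (Pde4d). Their intervals lay inside the gene in 87.9% of cases on chow and 89.2% on high fat, against 67.3% and 67.6% of the other assigned intervals. The typical interval was about as strong as elsewhere, with a median of 8.12 counts scaled to library size (CPM) on chow against 7.96 outside the members, and 6.91 against 6.73 on the high-fat diet.

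Only some members carried true runs. With gaps of at most 1000 bp counted as one run, 19 genes had a run of 20 or more intervals in either table, 17 of them shorter than 200 kb. At the other end, 22 genes had no run of 10, and 19 of these were longer than 200 kb. In Rxra, 138 of the 143 high-fat intervals formed 1 run of 103 kb, and in Ass1 78 of 79 formed 1 run of 56.8 kb. Pde4d had no run of more than 4, with 0.484 intervals per 10 kb of gene body on the high-fat diet, against 13.7 in Ass1 and 13.4 in Rxra. For the 22 genes with no run of 10 the label of a dense run therefore does not hold. Among genes over 200 kb, Adk and Upp2 had runs of 24 and 22 on the high-fat diet.

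**Figure D1:**
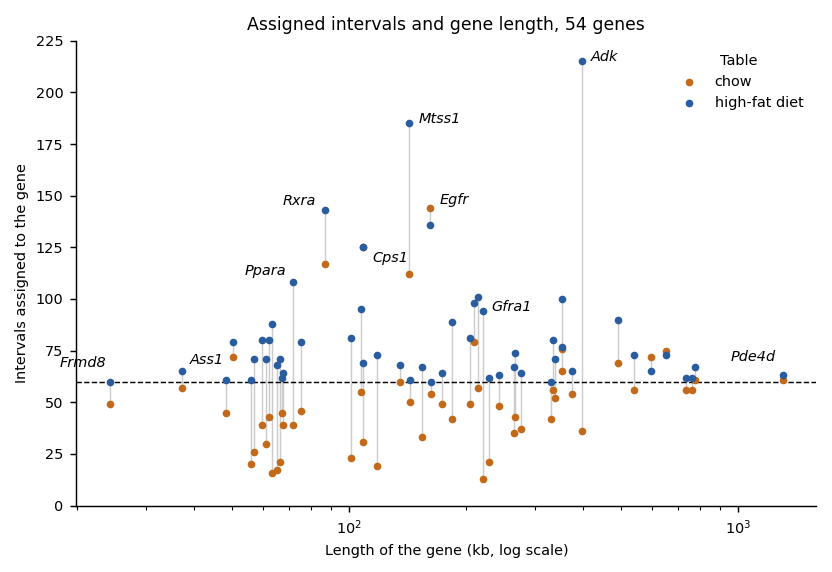
Number of intervals assigned to each of the 54 genes (vertical axis) against gene length in kb (horizontal axis, log scale), with chow in orange and the high-fat diet in blue, a line joining the 2 tables of a gene, and the dashed line at 60 intervals. All 54 blue points lie on or above the line, and Adk shows the widest gap, from 36 to 215.

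The assignment by distance matters most for Frmd8, the shortest member, a FERM-domain protein. Of its intervals, 46 of 49 on chow and 53 of 60 on the high-fat diet lay outside the gene, and 28 and 29 of these were inside Neat1, a nuclear long noncoding RNA gene beside it. For Cyp2b9, 3 of 22 outside intervals on chow and 5 of 28 on the high-fat diet were inside the pseudogene Cyp2b26-ps. Cyp2b genes lie in a family of close copies, so reads there may be split between copies, and values for Cyp2b9 are uncertain for that reason.

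Changes are given as log2 of knockout over floxed. For each gene the median over its intervals is a description, since neighbouring intervals share the same animals, and the test of a gene was made once, on its counts summed over all its intervals (the gene sum), with edgeR's quasi-likelihood test and Benjamini-Hochberg adjustment over all genes at 0.05. The median gene of the 54 was at -0.03 on chow and at 0.00 on high fat over the intervals. Their median gene sum change was -0.03 and -0.01, beside -0.01 and 0.00 over all genes tested. Interval medians were below 0 in 35 genes and above 0 in 19 on chow, and 27 lay on each side on the high-fat diet. Most were small: 42 genes on chow and 37 on high fat were within 0.2 of 0.

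On chow no member interval passed the test at an adjusted p under 0.05 (edgeR quasi-likelihood), against 0.0227% of all intervals. At an unadjusted p under 0.05, 47 of the 2787 were higher in knockouts (3% of all intervals) and 308 were lower (3.77% of all). DESeq2 called 2 higher, against 0.0714% of all, and 56 lower, against 0.545%, and 47 of those 56 were in Egfr. With the number in the column names as a replicate block, edgeR called 8, all lower: 4 in Ass1, 2 in Egfr and 1 each in Iqgap2 and Rxra. The share of all intervals called with the block was not counted. Groups that did not overlap were found for 82 intervals with knockouts higher (5.63% of all) and 255 with knockouts lower (6.04%). None of the 54 gene sums passed on chow with edgeR or with DESeq2, and the edgeR share was 0% of all 15930 genes tested. At an unadjusted p under 0.05, 4 members passed, a share of 7.41%, against 6.55% of all. The genotypes did not overlap in 5 of the 54 chow gene sums, all with knockouts lower. How many of all genes did so was not counted, so lack of overlap in a gene sum is only a description here and below.

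On the high-fat diet 109 member intervals were higher in knockouts and 18 lower, against 0.448% and 0.303% of all intervals. Egfr held 73 of the 109, and 29, 32, 35 or 39 passed there without knockout 4, knockout 2, floxed animal 4 or floxed animal 2. The other 36 were spread over Gfra1 (9), Scp2 (8), Lpin1 (6), Slc7a2 (5), Nedd4l (3), Lpin2 (2) and 1 each in Itpr1, Zmiz1 and Frmd8. The 18 lower intervals were in Cyp2b9 (6), Abcc2, Ppara, Lpin2 and Frmd8 (2 each), and Ass1, Foxn3, Plpp3 and Upp2 (1 each). These numbers per gene moved with single animals: that of Lpin1 was 0 without floxed animal 4 or knockout 4 and 18 without floxed animal 1, and that of Gfra1 was 2 without floxed animal 4 and 15 without floxed animal 1. That of Scp2 was 2 without knockout 4 and 14 without knockout 1, and that of Cyp2b9 was 2 without floxed animal 4 or knockout 3 and 10 without knockout 1 or 2. Non-overlapping groups were found for 217 intervals higher (2.8% of all) and 106 lower (2.5%). Leaving out 1 library moved the higher count by more than 1.5 times for floxed animal 1 (218), 2 (66) and 4 (45) and for knockouts 2 (67), 3 (66) and 4 (40). It did so with the lower count for floxed animals 2 (6), 3 (66) and 4 (6) and for knockouts 1 (34), 3 (3) and 4 (6). Of the gene sums, Egfr passed as higher, against 0.178% of all genes, and none as lower, against 0.166% (edgeR). DESeq2 passed 3 as higher, Egfr, Nedd4l and Scp2, and 0 as lower. The share of all genes that DESeq2 passed was not counted. The genotypes did not overlap in 3 gene sums with knockouts higher and 2 with knockouts lower, and the share over all genes was not counted. At an unadjusted p under 0.05 with edgeR, 13 members passed in either direction. Of these 7 were lower, against 5.02% of all genes. The rest were higher, and that share over all genes was not counted.

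The intervals were called by the submitters in one genotype or the other, and each bears that genotype's name. All 109 higher intervals bore the knockout's name, and 17 of the 18 lower ones the floxed name. Over all intervals of the high-fat table the median change was 0.13 for those named for the knockout and -0.13 for those named for the floxed livers. The 5 members with at least 80% of their high-fat intervals named for the knockout were Egfr, Gfra1, Lpin1, Scp2 and Slc7a2. Their medians ran from 0.46 to 1.11. The 4 with at most 20% were Abcc2, Cyp2b9, Plpp3 and Upp2, with medians from -0.70 to -0.38. The number of intervals of such a gene, by which it became a member, thus came mostly from the genotype in which its counts were higher. Numbers of its intervals above or below 0 come from the same selected intervals and are only a description. On chow 9 members had at most 20% of their intervals named for the knockout, with medians from -1.26 to -0.11. Taken over intervals of 1 origin, the chow medians of Cyp2b9 (-0.16) and Upp2 (-0.06) turned negative with floxed-called intervals alone. With knockout-called intervals alone, that of Cps1 on chow was 0.18 and those of Plpp3 and Rbm47 on the high-fat diet were both 0.03. The part of this selection in the gene medians was not tested further.

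**Figure D2:**
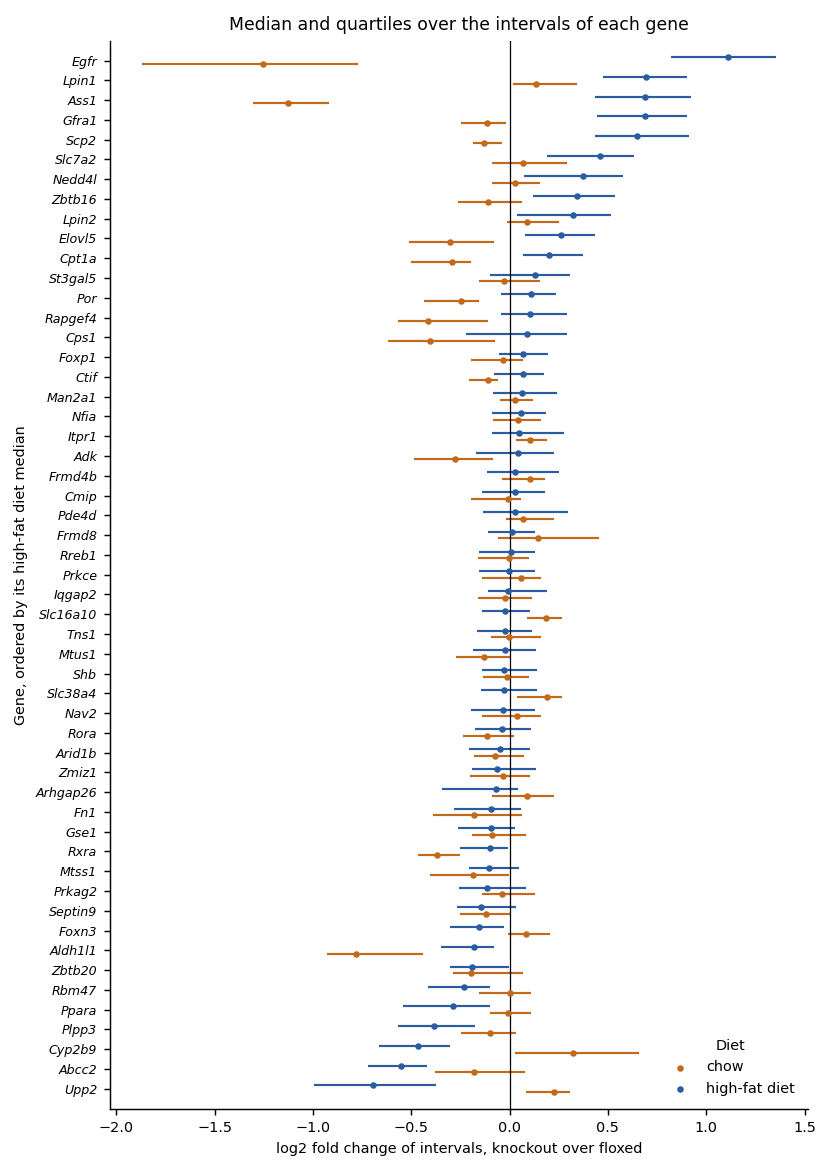
Median log2 fold change (points) and quartiles (bars) over the intervals of 53 of the 54 genes, knockout over floxed, on chow (orange) and the high-fat diet (blue), ordered by the high-fat median. Egfr and Ass1 lie far to the left on chow and to the right on the high-fat diet, and most other genes lie within 0.2 of 0.

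Among receptors and signalling proteins, Egfr stood out on both diets. Egfr (11:16752203-16913907) encodes the epidermal growth factor receptor, a receptor tyrosine kinase. On the high-fat diet its summed counts were 905, 1419, 1015 and 1142 CPM in knockouts 1 to 4, and 635, 571, 631 and 571 CPM in floxed animals 1 to 4. Every knockout was above every floxed animal. The gene sum was higher by 0.90 on the log2 scale (SE 0.12, edgeR adjusted p = 0.000842), and the median over its 136 intervals was 1.11 (quartiles 0.82 and 1.35), with 134 of them above 0.

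On chow the direction was the opposite. Summed counts over Egfr's 144 intervals were 467, 627 and 748 CPM in the knockouts and 1751, 843 and 1511 CPM in the floxed animals, again with no overlap. The median was -1.26 (quartiles -1.87 and -0.77), and 1 interval of 144 was above 0. The gene sum change of -1.16 (SE 0.26) did not pass (edgeR adjusted p = 0.718), but without floxed animal 2, 1 of the shallow libraries, it was -1.41 and passed (adjusted p = 0.0169).

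The difference between the diets, tested directly on counts summed over the 86 Egfr intervals shared by both tables, was 1.91 (high-fat effect minus chow effect, edgeR adjusted p = 0.0051). Egfr was the only member to pass that test, against 0.0328% of all 15255 genes, and the next smallest adjusted p among members was 0.539. It passed under every alternative tried, with adjusted p between 2.21e-06 and 0.0232. None of these alternatives took the intervals called in 1 genotype alone. Diet goes with the table, the depth and possibly the feeding state, and these cannot be told apart.

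The origin of the intervals was as lopsided: 142 of the 144 chow intervals bore the floxed name, and 133 of the 136 high-fat intervals the knockout name. With only the 3 floxed-called high-fat intervals of Egfr the gene sum change was 0.35 and did not pass (edgeR adjusted p = 0.136), while with the 133 knockout-called it was 0.85 and passed (adjusted p = 0.00294).

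The change was not even along Egfr. The start-site interval, its strongest, was at 45.4 ± 2.6 CPM in knockouts and 43.3 ± 4.2 in floxed animals on the high-fat diet (SD, n = 4), a change of 0.07 (SE 0.10, edgeR adjusted p = 0.889). On chow the same site was at 45.7 ± 7 and 60.3 ± 16 CPM (SD, n = 3), a change of -0.40 (SE 0.18, adjusted p = 0.738). With the gene body divided into 3 equal parts, the chow medians were -1.88 in the part nearest the start (67 intervals), -0.92 in the middle (57) and -0.47 in the part nearest the end (10). The high-fat medians ran the other way, at 1.003 (59 intervals), 1.12 (40) and 1.38 (21), and 29, 21 and 14 of these intervals passed with all libraries. Beyond the end of the gene 7 of 8 passed.

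The high-fat Egfr interval with the smallest p was such a one, at 11:16918758-16919258, 5101 bp past the gene. It held 10.9, 18.5, 10.6 and 6.69 CPM in the knockouts and 2.92, 2.73, 4.02 and 3 CPM in the floxed animals, a change of 1.89 (SE 0.25, edgeR adjusted p = 0.000126). The chow interval with the smallest p, in the gene body at 11:16785937-16786437, held 0.389, 0.564 and 0.678 CPM in knockouts and 5.43, 1.88 and 5.88 CPM in floxed animals. Its change was -3.03 (SE 0.45) and did not pass (edgeR adjusted p = 0.0872). It passed without floxed animal 2 (adjusted p = 0.000811) and with the replicate block (adjusted p = 0.0402).

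**Figure D3:**
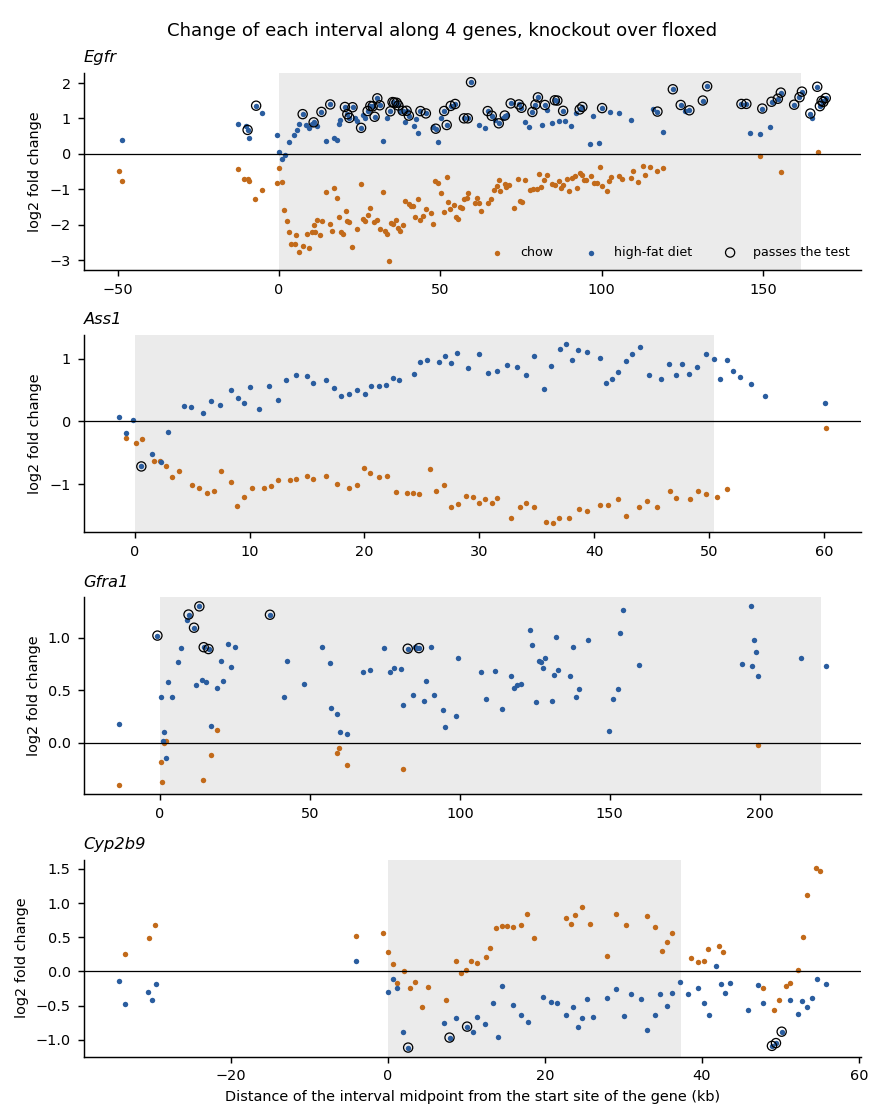
Change of every interval (points, log2 of knockout over floxed) along 4 genes, on chow (orange) and the high-fat diet (blue). The horizontal axis is the distance in kb of the interval midpoint from the gene bound at the start of the gene. The gene body is shaded, and black rings mark intervals that passed the test. In Egfr the chow points are lowest in the part of the gene nearest the start (median -1.88) and the high-fat medians are 1.003, 1.12 and 1.38 from the part nearest the start to the part nearest the end.

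Gfra1 (19:58235581-58455946), the co-receptor for the growth factor GDNF, was a member through the high-fat table alone, with 94 intervals against 13 on chow. Its high-fat median was 0.69, with 93 of 94 intervals above 0, and 86 of the 94 were named for the knockout. Summed counts were 622, 837, 604 and 788 CPM in knockouts and 551, 608, 385 and 402 CPM in floxed animals. The groups overlapped narrowly, and the change of 0.55 (SE 0.14) did not pass (edgeR adjusted p = 0.11). Without floxed animal 2 it was 0.68 and passed (adjusted p = 0.0366), as it did with counts scaled to library totals alone (0.0493). Its interval with the smallest p, in the gene body at 19:58441070-58441570, was at 22.1 ± 2.6 CPM in knockouts and 11.7 ± 0.68 in floxed livers (SD, n = 4), a change of 0.91 (SE 0.14, adjusted p = 0.000849).

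Of the other signalling genes, Nedd4l (a ubiquitin ligase acting on ion channels, 56 intervals on chow and 80 on high fat) had medians of 0.03 and 0.38, and 3 high-fat intervals rose. Its high-fat sum ranged from 710 to 786 CPM in knockouts and from 610 to 636 in floxed animals without overlap, a change of 0.28 that passed with DESeq2 and not with edgeR (adjusted p = 0.183). Rapgef4, an exchange factor activated by cyclic AMP (37 and 64), was at -0.42 and 0.11. Itpr1, a calcium channel of the endoplasmic reticulum (52 and 71), was at 0.10 and 0.05, with 1 interval up on the high-fat diet. The adaptor Shb (55 and 95) was at -0.01 and -0.03, the kinase Prkce (69 and 90) at 0.06 and 0.00, the phosphodiesterase Pde4d (61 and 63) at 0.07 and 0.03, and the AMP-kinase subunit Prkag2 (48 and 63) at -0.04 and -0.12.

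Among genes of nitrogen and nucleoside metabolism, Ass1, Cps1, Aldh1l1 and Adk had chow medians below 0. Ass1 (2:31470270-31520670), a urea-cycle enzyme that joins citrulline to aspartate, had a median of -1.12 over 72 chow intervals, with none above 0. On the high-fat diet it was 0.69 over 79 intervals, with 74 above 0. Of these intervals, 71 on chow were named for the floxed livers and 57 on the high-fat diet for the knockout. Leaving out 1 library moved the chow median to between -1.86 (without knockout 2) and -0.66 (without floxed animal 2), and the high-fat median to between 0.46 (without knockout 4) and 1.27 (without floxed animal 1). The animals of a group differed widely. Chow sums were 472, 1035 and 316 CPM in knockouts and 593, 1839 and 1319 CPM in floxed animals. High-fat sums were 1425, 710, 1301 and 1783 CPM in knockouts and 1566, 997, 419 and 466 CPM in floxed animals. The groups overlapped on both diets, neither sum passed (edgeR adjusted p = 0.718 and 0.56), and the difference between diets, 1.68, did not pass either (adjusted p = 0.605).

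With all libraries 1 Ass1 interval passed, and it was lower where the median of the gene was higher: just past the start, at 2:31470595-31471095, it fell by 0.72 on the high-fat diet (SE 0.17, edgeR adjusted p = 0.04), with 10.2 ± 1.8 CPM in the knockouts beside 16.8 ± 3.7 CPM in the controls (SD, n = 4). It was the single start-site interval that passed among the 42 members with a promoter entry. The call was lost without floxed animal 1, 2 or 4 (adjusted p = 0.0709, 0.226 and 0.116) and without knockout 1, 3 or 4 (0.0681, 0.128 and 0.194). Without floxed animal 1, 46 Ass1 intervals passed as higher and 0 as lower, and without knockout 2, 3 passed as higher and 1 as lower. Along the gene body the high-fat median was 0.33 in the part nearest the start (21 intervals), 0.77 in the middle (23) and 0.92 in the part nearest the end (25), and the chow medians were -0.93, -1.14 and -1.35 (24, 24 and 20).

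Cps1, which makes carbamoyl phosphate for the urea cycle (125 intervals in each table), had medians of -0.41 and 0.09. The chow median was 0.09 without floxed animal 3. The high-fat median ran from -0.16 without floxed animal 3 to 0.69 without floxed animal 1, where 28 of its intervals passed as higher, while 5 passed as lower without floxed animal 3. Its sums spread from 802 to 2014 CPM on chow and from 464 to 1946 CPM on the high-fat diet. Aldh1l1, a folate enzyme (45 and 61 intervals), was at -0.78 and -0.18. Its chow sums were 345, 421 and 269 CPM in knockouts and 448, 570 and 515 CPM in floxed animals, without overlap, but the change of -0.57 (SE 0.16) did not pass (edgeR adjusted p = 0.718). Adenosine kinase, Adk (36 and 215), was at -0.28 and 0.04.

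Upp2, a uridine phosphorylase (21 and 62 intervals), went the other way from Ass1, with 0.23 on chow and the lowest high-fat median of all members, -0.70. Its high-fat sums were 485, 365, 344 and 274 CPM in knockouts and 677, 717, 299 and 439 CPM in floxed animals, a change of -0.54 (SE 0.21, edgeR adjusted p = 0.358). It was -0.73 and passed without floxed animal 3 (adjusted p = 0.0274). On chow its median was -0.28 without knockout 1.

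Of 9 genes of lipid and xenobiotic metabolism, 7 had high-fat medians above 0. Scp2 (sterol carrier protein, 23 intervals on chow and 81 on high fat) was at -0.13 and 0.65. Its high-fat sums were 647, 782, 621 and 917 CPM in knockouts and 481, 573, 512 and 509 CPM in floxed animals, with no overlap. The change of 0.52 (SE 0.11) did not pass (edgeR adjusted p = 0.0577), and it passed with DESeq2 and with 1 library left out: without knockout 1, knockout 3 or floxed 3 (adjusted p = 0.0439, 0.0409 and 0.0418). Its interval with the smallest p rose from 9.93 ± 2.8 to 19.9 ± 4.5 CPM (SD, n = 4, adjusted p = 0.0047).

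Lpin1, a phosphatidate phosphatase (19 and 73), was at 0.14 and 0.69, and 70 of its 73 high-fat intervals were above 0. High-fat sums were 595, 483, 566 and 832 CPM in knockouts and 539, 480, 337 and 306 CPM in floxed animals, overlapping, with a change of 0.58 (SE 0.17, edgeR adjusted p = 0.179). Its relative Lpin2 (21 and 71) was at 0.09 and 0.32, with 2 intervals up and 2 down. Cpt1a, the entry enzyme of mitochondrial fat oxidation (16 and 88), was at -0.30 and 0.20, the fatty acid elongase Elovl5 (45 and 62) at -0.30 and 0.26, the ganglioside synthase St3gal5 (26 and 71) at -0.03 and 0.13, and Por, the reductase that supplies electrons to cytochromes P450 (17 and 68), at -0.25 and 0.11. None of their sums passed.

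The other 2 of that group had high-fat medians among the 6 lowest of all members. Cyp2b9 (57 and 65), a cytochrome P450, was at 0.32 on chow, the highest chow median of all members, and at -0.47 on the high-fat diet, where 2 of 65 intervals were above 0. The chow median ran from 0.11 without knockout 1 to 0.71 without floxed animal 2. High-fat sums were 570, 601, 322 and 391 CPM in knockouts and 676, 750, 560 and 702 CPM in floxed animals, which overlapped, a change of -0.51 (SE 0.15, edgeR adjusted p = 0.192). Of its 6 lower intervals 3 lay in the part of the body nearest the start and 3 past the end, where 7:26223266-26223766 fell from 29.2 ± 5.1 to 15.8 ± 2.9 CPM (SD, n = 4, adjusted p = 0.00143). Plpp3, a lipid phosphate phosphatase (46 and 79), was at -0.10 and -0.38, with 1 interval down.

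**Figure D4:**
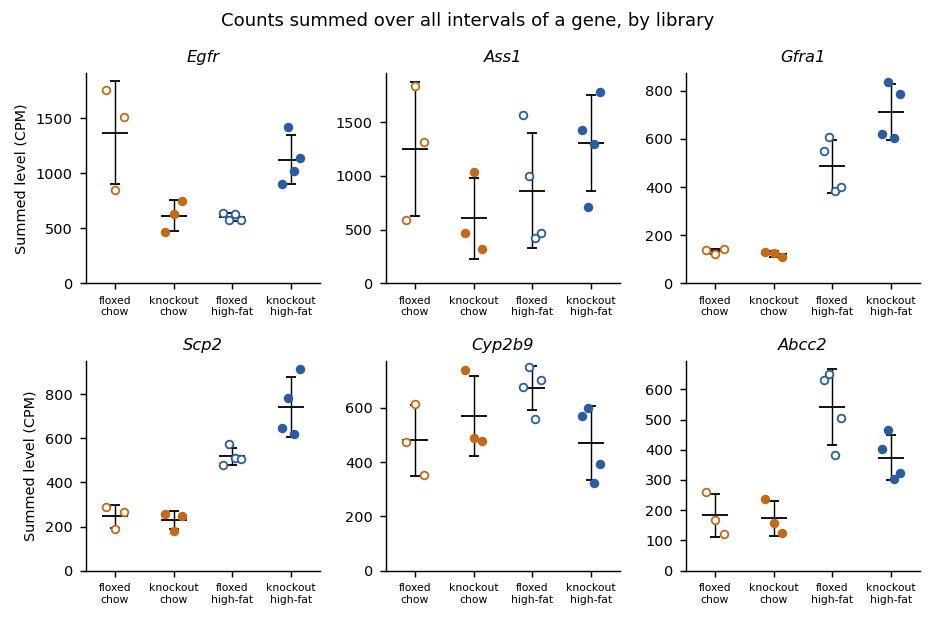
Counts summed over all intervals of 6 genes in every library (points, CPM), with group mean and SD, in floxed (open) and knockout (filled) livers on chow (orange) and the high-fat diet (blue); levels of the 2 diets come from separate tables and are not to be compared. Egfr shows no overlap between genotypes on either diet, and in Ass1 the groups overlap on both.

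Among transport and secretory genes, Abcc2, which exports conjugated bilirubin into bile (20 and 61 intervals), was at -0.18 and -0.55. None of its 61 high-fat intervals was above 0, and 55 of the 61 were named for the floxed livers. The sign on chow rested on single animals, since the median was 0.20 without floxed animal 1 and -0.49 without knockout 1. High-fat sums were 404, 466, 304 and 322 CPM in knockouts and 631, 652, 382 and 504 CPM in floxed animals, a change of -0.54 (SE 0.15, edgeR adjusted p = 0.159). It passed without floxed animal 3, whose value lay among the knockouts' (-0.67, adjusted p = 0.0115). The cationic amino acid transporter Slc7a2 (39 and 80) was at 0.07 and 0.46, with 5 intervals up. None passed without floxed animal 4, knockout 3 or knockout 4, and 12 passed without floxed animal 1. Its chow median ran from -0.12 without knockout 2 to 0.48 without floxed animal 3. Slc38a4 (30 and 71) and Slc16a10 (31 and 69), also amino acid transporters, were both at 0.19 on chow and at -0.03 and -0.02 on the high-fat diet. Fibronectin, Fn1 (39 and 64), was at -0.18 and -0.09, and the Golgi mannosidase Man2a1 (33 and 67) at 0.03 and 0.06.

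Transcription, chromatin and RNA-binding factors were the largest group, with 14 genes and 1 interval up and 3 down on the high-fat diet. Rxra, the partner of many nuclear receptors, had a chow median of -0.37 with 116 of 117 intervals below 0, and of -0.10 over 143 high-fat intervals. Its chow sums were 1273, 1217 and 1149 CPM in knockouts and 1811, 1362 and 1495 CPM in floxed animals, without overlap. The change of -0.36 (SE 0.13) did not pass (edgeR adjusted p = 0.718). Ppara, the receptor that drives fat oxidation in fasting, was at -0.01 on chow and -0.29 on high fat, where 2 intervals fell. Of these the one with the smallest p, in its gene body, went from 9.43 ± 2.7 to 4.2 ± 1.8 CPM (SD, n = 4, edgeR adjusted p = 0.0186). That call was lost without floxed animal 4 (adjusted p = 0.162), knockout 3 (0.0993) or knockout 4 (0.101). Its sums, from 737 to 1175 CPM in knockouts and from 937 to 1259 in floxed animals, overlapped.

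Rbm47, an RNA-binding protein (60 and 68), was at 0.00 and -0.23, and its high-fat sums did not overlap between genotypes (474 to 569 CPM in knockouts, 583 to 647 in floxed animals). The change of -0.24 did not pass (edgeR adjusted p = 0.326). The forkhead factor Foxn3 (54 and 65) was at 0.08 and -0.16, also without overlap on the high-fat diet, at -0.19 (adjusted p = 0.379), with 1 interval down. Zbtb16 (42 and 89) was at -0.11 and 0.34, with 80 of 89 high-fat intervals above 0 and overlapping sums. The others had medians within 0.2 of 0 on both diets or at its edge: Zbtb20 (56 and 62 intervals) at -0.20 and -0.19, Rora (56 and 62) at -0.11 and -0.04, Nfia (56 and 73) at 0.04 and 0.06, Foxp1 (72 and 65) at -0.04 and 0.07, Rreb1 (49 and 64) at -0.01 and 0.00, Zmiz1 at -0.03 and -0.06 with 1 interval up, Arid1b (65 and 77) at -0.07 and -0.05, Gse1 at -0.09 and -0.10, and Ctif (43 and 74) at -0.11 and 0.07.

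The medians of the cytoskeletal and adaptor genes ran from -0.19 to 0.15 on chow and from -0.14 to 0.03 on the high-fat diet. Mtss1, an actin- and membrane-binding protein, was at -0.19 and -0.11. With edgeR and all libraries none of its 112 and 185 intervals passed, although on the high-fat diet only Adk had more. DESeq2 called 1 of them lower on chow. On the high-fat diet 1 passed as lower without floxed animal 3, and 3 without knockout 1 and floxed 3 together. Tns1 was at 0.00 and -0.02, Nav2 (75 and 73) at 0.04 and -0.04, Arhgap26 (61 and 67) at 0.09 and -0.07, Iqgap2 (35 and 67) at -0.02 and -0.01, Septin9 (54 and 60) at -0.12 and -0.14, Frmd4b (42 and 60) at 0.10 and 0.03, Mtus1 (50 and 61) at -0.13 and -0.03, and Cmip (49 and 81) at -0.01 and 0.03. Frmd8 was at 0.15 and 0.01. Its 3 called intervals included 19:5815919-5816419, 34805 bp outside the gene, which rose from 17.3 ± 3 to 31.2 ± 3.6 CPM (SD, n = 4, adjusted p = 0.000955).

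The changes of intervals at annotated start sites were the smaller ones. Within 500 bp of a start the median absolute change was 0.11 on chow (83 intervals) and 0.15 on the high-fat diet (93), against 0.20 and 0.23 elsewhere in the same genes. The start-site intervals were also stronger, at 15.9 against 7.88 CPM on chow and 14.1 against 6.74 CPM on the high-fat diet, and stronger intervals have less counting error. No test of this contrast was made.

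Across the 54 genes the chow and high-fat medians had a Pearson r of -0.446, which fell to -0.061 over 52 genes without Egfr and Ass1. The points share libraries within a diet, and the 2 diets share none. By sign of the median 17 genes were lower on chow and higher on the high-fat diet, 9 the reverse, 18 lower on both and 10 higher on both.

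With 60 to 62 intervals in their larger table, Frmd4b, Septin9, Frmd8, Abcc2, Mtus1, Aldh1l1, Rora, Zbtb20, Upp2 and Elovl5 were just inside the threshold. Just outside, with 57 to 59, were Apob, Arid5b, Etv6, Fads2, Fam214a, Lifr, Slc39a14 and Slco1b2. Their chow medians ran from -1.41 to 0.19 and their high-fat medians from -0.43 to 0.12. Lifr, the receptor for leukemia inhibitory factor, gave the lowest of these on chow, over 59 intervals, below every member.

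Reads within intervals totalled 15.5 to 35 M per library on chow, where the libraries numbered 2 of both genotypes were the shallow ones at 15.5 and 17.1 M, and 7.59 to 10.4 M on the high-fat diet. Those 2 chow libraries had the highest scores on the first principal component (44.7 and 92, the others -63 to 4.79). On the high-fat diet knockout 1 scored -4.98 and floxed 3 18.9 on it, beside 12.2 to 73.4 in the other knockouts and -75 to -41 in the other floxed animals. Floxed animals 1 and 2 were both above floxed animals 3 and 4 in 31 of the 54 members, against 21.8% of all genes. Without high-fat knockout 1 and floxed 3, a choice made after these values were seen, the gene sums of Egfr and Scp2 passed as higher and those of Abcc2, Cyp2b9 and Upp2 as lower. The targeted gene, Matr3, had 7 intervals in each table, summing to 83.5 to 89 CPM in knockouts and 89.5 to 92.6 CPM in floxed animals on chow, and to 72.1 to 80.8 and 69.5 to 98.2 CPM on the high-fat diet. Neither change passed (edgeR adjusted p = 0.735 and 0.658), and this checks no label, since where the floxed segment lies has no account in the labels.

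All 8 hepatocyte markers had intervals, and their summed level was 3096 to 6321 CPM in every library. The other lists were far lower: at most 510 CPM for sinusoidal endothelium, 220 for bile duct cells, 153 for Kupffer cells, 136 for stellate cells, 101 for lymphocytes and 48.4 for neutrophils. The hepatocyte list holds Cps1, itself a member, and a sum grows with the number of intervals of its genes. The sums are therefore no measure of the amounts of the cell types. The defining markers Krt19, Krt7, Timd4, Dcn, Cd8a and Mpo had no interval in either table. On the high-fat diet Kupffer-cell markers (7 of 8 with an interval) summed to 134 to 149 CPM in knockouts and 104 to 153 CPM in floxed animals. On chow the 6 with an interval summed to 61.9 to 97 and 74.5 to 108 CPM. On chow lymphocyte markers (3 of 8 with an interval) were at 82 to 101 CPM in knockouts and 68.6 to 76.5 in floxed animals. These sums did not overlap, but the median change of the markers was 0.02. On the high-fat diet (4 of 8 with an interval) the sums overlapped, at 72.1 to 77.1 and 70.2 to 81.3 CPM. The median change of the hepatocyte markers was -0.31 in the chow and -0.29 in the high-fat table. Of all marker gene sums 1 passed, that of the hepatocyte marker Ttr on the high-fat diet (-0.79, edgeR adjusted p = 0.0015). The part of other cell types in the changes above was not tested.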

How the data were processed

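Accessibility was measured by ATAC-seq in 14 mouse livers. The authors deposited 1 table of whole-number read counts per diet, over intervals of 501 bp on mm10, per the file headers and labels. The submitters' processing notes list MACS2 2.2.7.1, Bowtie2 2.4.2, HOMER 4.11, Trim Galore 0.6.7 and bedtools and give no roles. Treatment of duplicates, the transposase offset and pooling before peak calling have no account there (not given in the sources used here). High-fat columns matched sample labels. Chow columns carry other names and were used as members of their group, by the number in the column name. Same-numbered chow columns had correlations of 0.18, 0.53 and 0.19, and chow knockout 1 correlated best with floxed animal 3. A replicate block on these numbers, which come from the file header and not the labels, stands beside the chow results. Whether the numbers pair the animals is not known. Number 2 holds both shallow libraries.

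The 2 tables were fitted separately (edgeR 4.0.16, R 4.3.3; TMM, filterByExpr, quasi-likelihood test of genotype, Benjamini-Hochberg over the whole table at 0.05), per interval and on counts summed per gene. Changes are log2 of knockout over floxed and errors are SE from the fit. Levels are CPM after TMM with SD. The difference between diets was fitted over 14 libraries on intervals that overlap 1 to 1 by at least 50%. DESeq2 1.42.0 was an alternative. The scripts were tested on simulated data. Library totals cover reads within intervals and set the counting error. No interval was removed by the filter.

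Genes and bounds come from the RefSeq table of GRCm38.p6 (21900 protein-coding genes) and start sites from its promoter table. In more detail are named the 10 members with most intervals, the 6 highest and 6 lowest medians per diet, members whose gene sum passed, and the 5 densest, and within them the interval with the highest mean CPM or the smallest p. The members, lists and roles were chosen with earlier results of these data known. Each title numbers 1 female, so a library is read as 1 animal. Every library of a group was used as a replicate. The values of 1 member and of 1 marker gene are not reported here.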

Additional observations from a re-analysis of the deposited data

Results flagged for a closer look

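In 4 of the 108 high-fat groups of 4 animals (54 genes, 2 genotypes), 1 gene sum lay far from the other 3, which chance alone gives in about 1 group in 20. The values were 475 CPM for Foxn3 in floxed animal 2 (the others 460 to 461), 482 for Frmd4b in knockout 2 (468 to 470), 540 for Mtus1 in knockout 2 (449 to 462) and 499 for Pde4d in knockout 1 (538 to 545). None of these gene sums passed the genotype test on either diet. The knockout effect on the Egfr gene sum differed between diets by 1.91 on the log2 scale (edgeR adjusted p = 0.0051), being below 0 on chow and above 0 on the high-fat diet.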

How the results depend on the processing

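Egfr's difference between diets passed in all 19 fits, and its high-fat gene sum in 19 of 20, all but the one on its 3 floxed-called intervals. No fit of the difference between diets was made on intervals of 1 origin. On chow, member intervals passing numbered 0 with edgeR, 58 with DESeq2, 63 without both shallow libraries and 0 to 88 with 1 library left out (88 without floxed animal 2). The chow gene sums passing were 0 to 1 with 1 library left out. For these alternatives, shares over all intervals or genes were counted only for DESeq2 on chow intervals. On the high-fat diet, leaving out 1 library gave 40 to 218 higher and 3 to 66 lower intervals. The lowest higher count came without knockout 4 and the highest without floxed animal 1. The lowest lower count came without knockout 3 and the highest without floxed animal 3. Without knockout 1 and floxed 3 together there were 141 and 103. High-fat gene sums passing as higher were 3 with DESeq2, 3 with library totals, 2 with midpoints inside genes, 0 on floxed-called intervals, 2 without those 2 libraries, and 1 to 2 with 1 library left out. Those passing as lower were 3 without those 2 libraries and 0 to 2 with 1 left out. The median of the 54 chow medians was 0.092 on knockout-called intervals. The genes with 60 intervals numbered 40 by midpoint inside, 55 with the longest gene, 9 on floxed-called and 7 on knockout-called intervals, 14 in both tables, 97 at a threshold of 50 and 19 at 80. Among the genes described in detail, the sign of a gene sum that did not pass turned in 75 fits. The calls of the named intervals of Egfr, Gfra1, Scp2, Cyp2b9 and Frmd8 on the high-fat diet held in every alternative, and those of Ass1 and Ppara did not with 1 library left out.

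Same-numbered high-fat animals had correlations of 0.07, 0.13, 0.18 and -0.01, so the numbers were not taken to pair the animals. With the replicate block, 162 intervals were higher and 52 lower, and 6 gene sums passed each way (Egfr, Gfra1, Lpin1, Nedd4l, Scp2 and Slc7a2 as higher, Abcc2, Cyp2b9, Plpp3, Ppara, Rbm47 and Upp2 as lower). Shares over all intervals and genes with the block were not counted. Of the high-fat knockouts, 2 of 4 correlated best with their own number. The difference between diets in Egfr was 1.89 with the block (adjusted p = 0.0232). On chow the replicate block on the column numbers gave 8 intervals, all lower, and 0 gene sums. The 3 animals a group on chow limit what small changes can be seen. The 2 shallow chow libraries (15.5 and 17.1 M) were shallow only beside the other chow libraries, since the deepest high-fat library held 10.4 M. The part of depth in the number of calls was not tested.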
